A study of Homo sapiens with 12 samples.

Results

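Depletion of BMAL1 was examined in a pair of related renal carcinoma lines, and the genes described here are those whose RNA moved in the same direction in both. 786O is a clear cell renal cell carcinoma line that lacks functional VHL, the ubiquitin ligase subunit that marks HIF alpha subunits for degradation, and WT8 cells are 786O cells into which wildtype VHL was put back. Each line carried a lentiviral shRNA that is either a scrambled control (shControl) or directed at BMAL1 (shBMAL1), in a PLKO.1 vector selected with puromycin. This gave 4 groups of 3 replicates, 786O shControl, 786O shBMAL1, WT8 shControl and WT8 shBMAL1, which the labels call biological replicates. The cells were infected and selected as populations. The labels say shBMAL1 without naming the construct, and the study's methods also list an independent shBMAL1. The labels allow no comparison of constructs, so loss of BMAL1 and any other action of the shRNA cannot be told apart.

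RNA-seq counts of 16838 genes passed the filter on low counts. A gene was taken as shared when its 3 shBMAL1 libraries lay above, or below, its 3 shControl libraries in 786O and again in WT8 in the same direction, in counts scaled to a common library total (CPM, with TMM factors). By this rule 4239 genes (25.2% of those tested) were shared, 2051 higher and 2188 lower with shBMAL1. The 12 libraries held 33182025 to 36477509 counts and 15127 to 15953 genes with at least 10 counts, and replicates of a group correlated at 0.996 to 0.997 on the log2 scale across genes. Mitochondrial transcripts took 3.38% to 4.25% of the counts in 786O and 4.58% to 5.64% in WT8. Bulk RNA cannot tell fewer cells of a kind from less RNA per cell, which holds for each result here. The renal lineage factor PAX8, present at 313 CPM in 786O shControl and at 1330 CPM in WT8 shControl, is a marker of the labelled tissue, whereas the tubule genes HNF4A, LRP2 and SLC22A6 had too few counts to be tested.

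BMAL1 is a basic helix-loop-helix PAS protein of the circadian clock. It pairs with CLOCK or NPAS2, binds E-box elements such as CACGTG, and activates the Period and cryptochrome genes, whose products then repress BMAL1-CLOCK, and the REV-ERB genes, whose products repress BMAL1 transcription. It is related to ARNT, the usual partner of the HIF alpha subunits, which bind hypoxia response elements with the core ACGTG or GCGTG. In clear cell renal carcinoma the loss of VHL leaves HIF2α stable, and the study asked how far BMAL1 contributes to what HIF2α transcribes.

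The target itself was checked first. BMAL1, which the table lists under its older symbol ARNTL (chromosome 11, 13298199 to 13408813, plus strand, GRCh37), stood at 13.5, 10.8 and 12 CPM in the 786O shControl libraries and at 4.08, 3.68 and 4.05 with shBMAL1. In WT8 the values were 9.02, 10.3 and 8.40 against 1.49, 1.93 and 1.55. All 6 knockdown libraries were below all 6 controls. The decrease was 3.08-fold in 786O (log2 -1.62, SE 0.13) and 5.57-fold in WT8 (log2 -2.48, SE 0.14), and it was larger in WT8 (difference of the log2 changes -0.86, 95% interval -1.24 to -0.47, adjusted p 3.68e-04 in edgeR).

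The mean effect of shBMAL1, the average of the log2 change in 786O and that in WT8, was called at an adjusted p under 0.1 in 11018 genes, of which 5481 were higher (32.6% of the genes tested) and 5537 lower (32.9%). The shared genes were 12.2% of all tested genes on the higher side and 13.0% on the lower side, and all but 4 of the 4239 were also called in the mean effect. The rule and the call rest on the same libraries, so this is a description and not a second line of evidence. The 6783 genes that were called but not shared included 2735 whose fitted changes in the lines had opposite signs. Taken alone, 786O separated shBMAL1 from shControl without overlap in 8578 genes (50.9%) and WT8 in 11386 (67.6%). Of the 6279 genes without overlap in both lines, 67.5% had the same direction, and 2040 went in opposite directions, 1074 of them higher in 786O and lower in WT8.

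**Figure D1:**
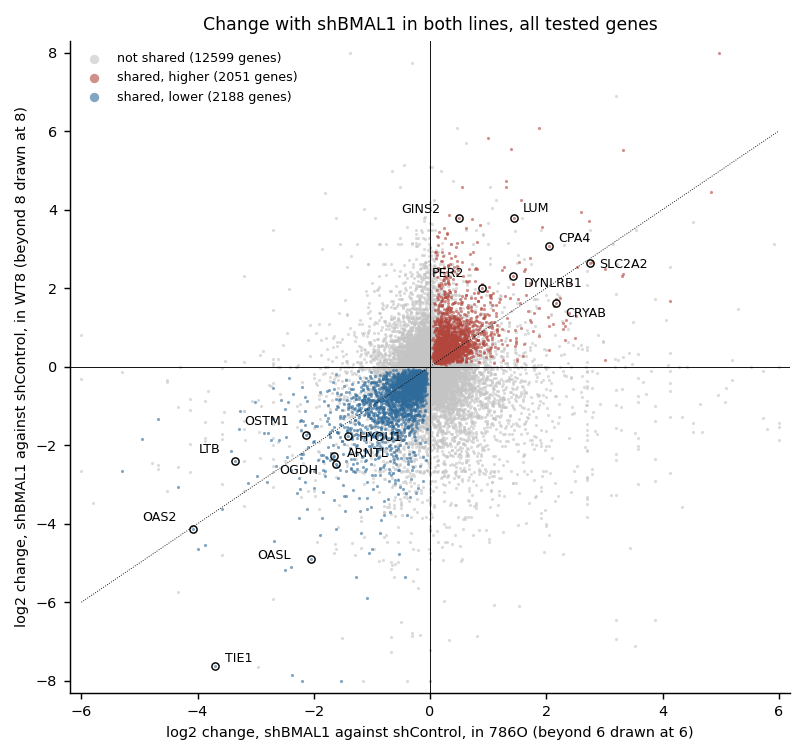
Log2 change with shBMAL1 in 786O (horizontal) against that in WT8 (vertical) for the 16838 tested genes, with shared higher genes in red, shared lower genes in blue, the rest in grey and the line of equal change dotted. The 2051 shared higher and 2188 shared lower genes fill opposite quadrants, which the rule itself brings about, and TIE1 and SLC2A2 lie far out on the lower and the higher side.

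Most shared changes were small and larger in WT8. The median log2 change of the shared higher genes was 0.31 in 786O and 0.53 in WT8, and that of the shared lower genes was -0.45 and -0.68. Over all tested genes the median mean effect was -0.01, with a median SE of 0.07. Changes over 2-fold in both lines were found in 74 higher and 241 lower genes. The size of the change was larger in WT8 in 74.2% of the higher and 70.5% of the lower genes. This share was not computed over all tested genes, of which WT8 separated 67.6% without overlap and 786O 50.9%. Whether larger changes in WT8 are particular to the shared genes was thus not tested. The difference between the lines was called for 2269 shared genes (53.5%), which is close to the 56.0% of all tested genes with such a call, and 1909 of these had the larger change in WT8. Shared genes were also more abundant than the rest, with a median of 32.4 against 9.78 CPM, and so were measured with less error (median SE 0.05 against 0.08). The rule has an edge: FBXW2 and COX6B1 lay just inside it, with FBXW2 at no more than 73.7 CPM in 786O shControl and no less than 73.7 in 786O shBMAL1, and GGPS1 and RPL8 just outside, with 241 members within 1% of overlap and 303 other genes within 1% of membership.

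In the clock, the target itself was shared and lower. Of 5 Period and cryptochrome genes 3 were shared and higher (60.0%), and of 9 clock output genes 2 were shared and lower (22.2%). Among all tested genes these shares were 12.2% higher and 13.0% lower. PER2, CRY1 and CRY2, which repress BMAL1-CLOCK, rose in both lines, and NR1D1 and NR1D2, which encode the REV-ERB repressors of BMAL1, fell in both. PER2 stood at 7.61, 7.18 and 6.65 CPM in 786O shControl and at 13.2, 12.6 and 14 with shBMAL1, and at 3.75, 3.07 and 3.48 against 13.6, 14 and 13.9 in WT8. The knockdown libraries of both lines thus reached similar PER2 levels from different starting points. The log2 change was 0.89 (SE 0.10) in 786O and 2.01 (SE 0.11) in WT8, with an adjusted p of 9.62e-08 for the difference in edgeR.

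CRY1 rose from 35.6 ± 2.80 to 54.2 ± 1.49 CPM (SD, n = 3) in 786O and from 44.3 ± 0.90 to 89.6 ± 1.81 in WT8. CRY2 rose by 0.49 and 1.25 on the log2 scale, in 786O and WT8. NR1D2 was the clock gene with the larger fall in 786O: it went from 45.7, 46.3 and 42.5 CPM to 12.1, 13.1 and 14.2 there, and from 44.7, 53.6 and 49.3 to 30.7, 33.2 and 32.3 in WT8. Its difference between the lines was 1.15 on the log2 scale (SE 0.10, adjusted p 9.56e-12 in edgeR), against the direction seen for most shared genes. NR1D1 went from 7.30 ± 0.48 to 4.63 ± 0.50 CPM in 786O and from 7.35 ± 0.44 to 3.23 ± 0.20 in WT8.

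The other 12 clock genes tested were not shared. PER1 and PER3 had lower levels with shBMAL1 in 786O (log2 -0.70 and -0.45) and higher levels in WT8 (0.39 and 0.93). NPAS2 and NFIL3 went the other way, at 0.68 and 0.71 in 786O and -0.44 and -0.31 in WT8. CLOCK and the BMAL1 paralog ARNTL2 differed from control by 0.01 and -0.01 in 786O and by 0.45 and 0.62 in WT8. DBP, a PAR bZIP factor driven by E-boxes, was at -2.31 (SE 0.30) in WT8 but at -0.44 (SE 0.43) in 786O, where it had 6 to 19 counts a library. BHLHE40 was at 0.00 in 786O and -1.05 in WT8. TEF, HLF, CIART and BHLHE41 completed the list, with mean effects of 0.18, 0.61, 0.30 and 0.12 and SEs of 0.06 to 0.26.

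**Figure D2:**
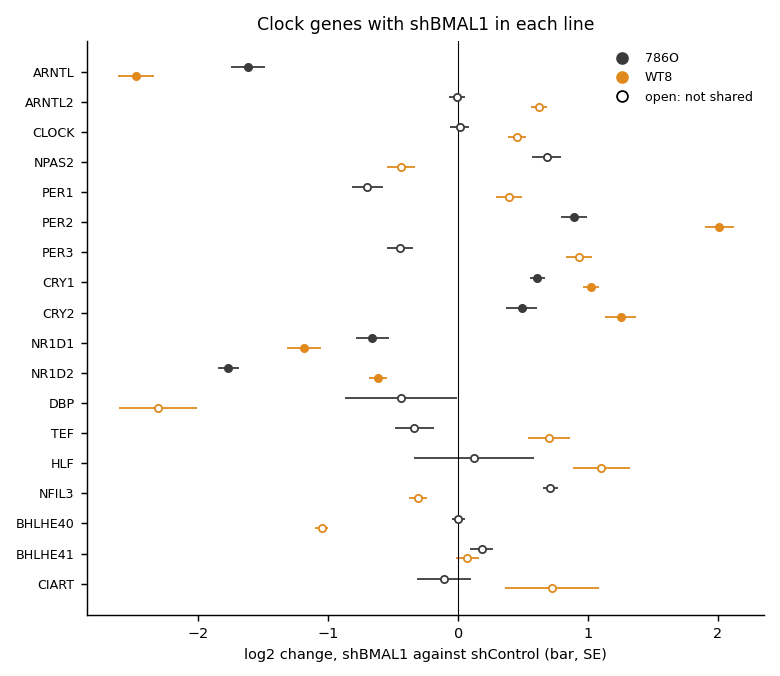
Log2 change with shBMAL1 against shControl for the 18 tested clock genes, in 786O (dark) and WT8 (orange), with bars for the SE and filled points for shared genes. ARNTL, NR1D1 and NR1D2 lie to the left in both lines and PER2, CRY1 and CRY2 to the right, and the open points of the other genes differ in sign or size between the lines.

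Outside the clock, the naming rule took the genes with the largest change in whichever line changed less. Only shared genes with a mean of at least 50 counts and a library over 3 counts in every group were ranked. On the lower side TIE1 came first. TIE1, an orphan receptor tyrosine kinase of endothelial cells (chromosome 1, 43766653 to 43788779, plus strand), had 6.45, 6.23 and 5.49 CPM in 786O shControl and 0.632, 0.374 and 0.373 with shBMAL1, and 14.3, 15.4 and 14.3 CPM in WT8 shControl against 1, 5 and 2 counts with shBMAL1. The decrease was 13.1-fold in 786O, and no fold is given for WT8 because its shBMAL1 libraries averaged under 3 counts. PADI3, a peptidylarginine deiminase, had 21, 28 and 11 counts against 0, 5 and 4 in 786O and 222, 163 and 170 against 12, 5 and 9 in WT8. LTB, the lymphotoxin beta subunit, had 6.30, 4.69 and 4.66 CPM against 0.833, 0.403 and 0.287 in 786O, and 12 to 16 counts against 2 to 4 in WT8.

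Next came SYTL1, a Rab27 effector (log2 -2.39 in 786O and -2.64 in WT8), OAS1, an interferon-induced oligoadenylate synthetase (-2.26 and -3.84), GPSM3, a G protein regulator whose annotated transcript shares its strand with NOTCH4 (-2.24 and -3.12), and the organic anion transporter gene SLCO2B1 (-2.12 and -3.63). OASL, a relative of OAS1, was at -2.05 and -4.90. The parathyroid hormone receptor gene PTH1R was at -2.02 and -1.93, DENND2A, a Rab exchange factor, at -1.89 and -4.30, and the netrin receptor gene UNC5B at -1.84 and -2.25. SULT1A1, a sulfotransferase with near-identical paralogs between which reads may be split, was at -1.85 and -2.39. All of these were present at under 20 CPM in every control group.

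Several abundant genes also fell in both lines. OGDH, OSTM1 and CMTM6 were picked after their values were seen. OGDH, a subunit of the mitochondrial 2-oxoglutarate dehydrogenase (chromosome 7, 44646171 to 44748665, plus strand), went from 142, 139 and 129 CPM to 43.8, 43.9 and 41.9 in 786O and from 185, 188 and 194 to 41.8, 37.2 and 37.8 in WT8. OSTM1, a partner of the lysosomal chloride transporter ClC-7 (chromosome 6, 108350449 to 108487058, minus strand), went from 95.1, 92.6 and 95 to 19.9, 23.1 and 21.3 CPM in 786O and from 120, 114 and 114 to 34.2, 35.2 and 34.1 in WT8. These are falls of 3.15-fold and 4.85-fold for OGDH and of 4.40-fold and 3.37-fold for OSTM1. The lack of overlap follows from the rule that picks shared genes, and the wide gap from picking these genes with their values known.

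CMTM6, which stabilises PD-L1 at the cell surface, fell by 1.73 and 1.71 on the log2 scale, a difference of 0.03 between the lines (adjusted p 0.906 in edgeR). ATP5B, the catalytic beta subunit of ATP synthase, fell from 978 ± 53.9 to 448 ± 7.67 CPM in 786O and from 1020 ± 24.4 to 436 ± 13.5 in WT8. TIMP2, an inhibitor of matrix metalloproteinases whose annotation overlaps CEP295NL on the same strand, fell from 102 ± 7.27 to 22 ± 1.85 CPM and from 162 ± 6.31 to 52.8 ± 0.34. HYOU1, an ER chaperone of the HSP110 family, fell from 663, 654 and 635 to 240, 246 and 247 CPM in 786O and from 544, 572 and 555 to 175, 163 and 157 in WT8.

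**Figure D3:**
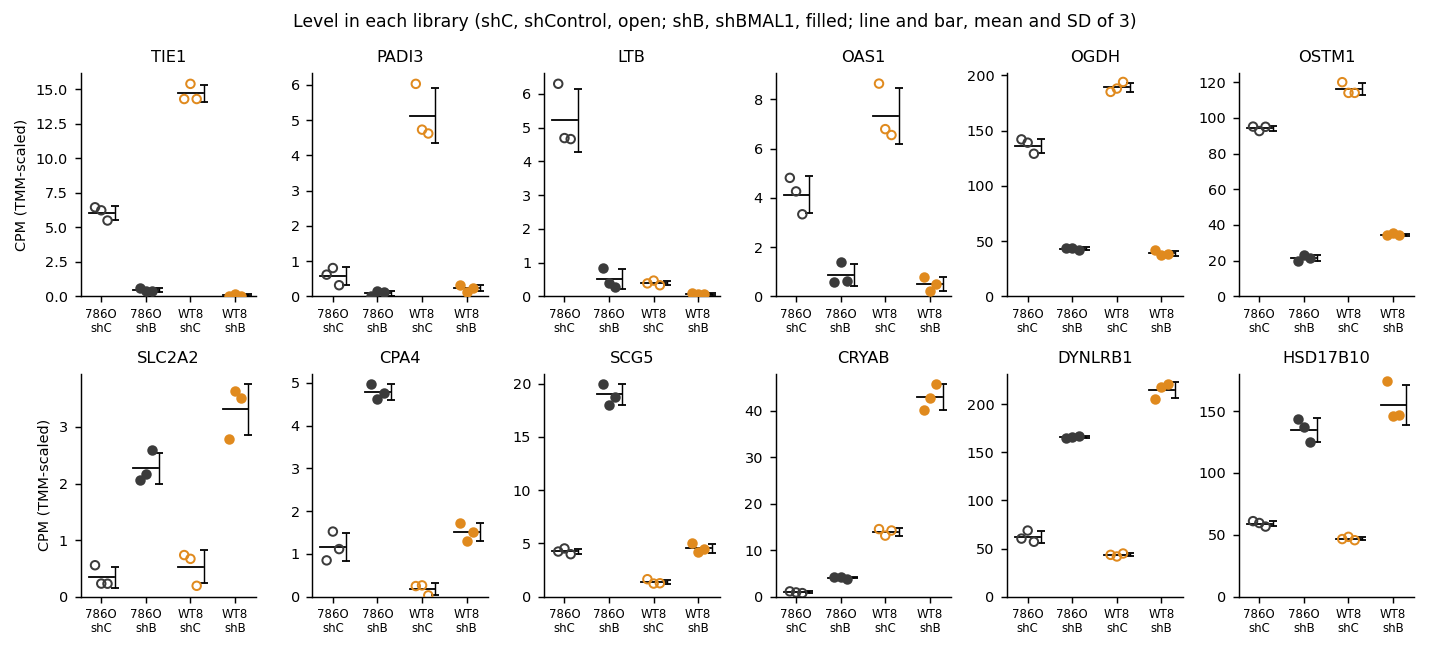
TMM-scaled CPM on linear axes from 0 in each of the 12 libraries for 6 shared lower genes (top row) and 6 shared higher genes (bottom row), open for shControl and filled for shBMAL1, with the mean as a line and the SD of 3 replicates as a bar. In each panel the filled points of a line lie wholly above or below its open points, which the rule itself brings about. The panels range from the low counts of PADI3 to OGDH, where controls near 136 and 189 CPM fell to about 43.2 and 38.9.

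On the higher side the list began with SLC2A2, the glucose transporter GLUT2 of liver, kidney and islet cells (chromosome 3, 170714136 to 170744532, minus strand). It had 19, 8 and 8 counts in 786O shControl and 72, 75 and 90 with shBMAL1, and 27, 23 and 7 against 105, 136 and 131 in WT8. The rise was 6.71-fold and 6.23-fold and did not differ detectably between the lines (difference -0.11, 95% interval -1.02 to 0.80, adjusted p 0.881 in edgeR). CPA4, a carboxypeptidase, rose from 0.846, 1.52 and 1.11 to 4.97, 4.61 and 4.77 CPM in 786O, and from 1 to 9 counts a library to 49 to 65 in WT8. SCG5, the 7B2 chaperone of prohormone convertase 2, whose annotation overlaps a read-through transcript, rose from 4.23, 4.52 and 3.98 to 20.0, 18.0 and 18.8 CPM and from 1.63, 1.22 and 1.25 to 5.00, 4.17 and 4.50.

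CRYAB, the small heat shock protein alpha B crystallin, rose 4.48-fold in 786O and 3.07-fold in WT8, where it was already at 13.9 ± 0.78 CPM in control. It overlaps HSPB2 on the opposite strand. DYNLRB1, a light chain of cytoplasmic dynein, was the most abundant of the 12 and the most precisely measured. Its levels went from 60.3, 68.7 and 57.0 to 165, 166 and 167 CPM in 786O and from 43.4, 41.7 and 44.8 to 206, 218 and 221 in WT8 (difference of the log2 changes 0.89, SE 0.08). HSD17B10, a mitochondrial dehydrogenase also needed for tRNA processing there and added after its values were seen, went from 61.0, 59.5 and 56.6 to 144, 137 and 125 CPM and from 46.5, 48.3 and 45.6 to 174, 146 and 147.

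The rest of the 12 were PCDH7, a protocadherin (log2 2.13 in 786O and 1.54 in WT8), PXDNL, a peroxidasin relative (1.52 and 2.66), the long non-coding RNA LINC00460 (1.52 and 1.72), SIGLEC15, a sialic acid binding lectin (1.88 and 1.5), LUM, the matrix proteoglycan lumican (1.45 and 3.80), SYNE1, which links the nuclear envelope to the cytoskeleton (1.43 and 2.11), and ZFPM2, a GATA cofactor (1.30 and 1.81). SERPINB2, plasminogen activator inhibitor 2, stood outside the 12 since its mean was under 50 counts and its controls were under the floor of 3 counts. It had 0, 2 and 0 counts in 786O shControl and 33, 20 and 21 with shBMAL1, and 0 in each WT8 control library against 64, 72 and 71, which is at least 22.1-fold higher in WT8 when 3 counts per library stand for the control. Whether the mates of a read pair were counted separately is not given, and if they were, that bound may be too high.

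Interferon-induced genes were the list with the largest share of shared lower genes. These are genes that type I or II interferon switches on through its receptors, and they encode antiviral effectors. All 45 were tested, and 30 were shared and lower (66.7%, against 13.0% of all tested genes), with 1 shared and higher. The median mean effect was -1.14 over the list, -0.61 in 786O and -1.64 in WT8. LGALS3BP, a secreted glycoprotein, was the 1 that rose, by 0.47 and 0.24. The list was drawn up with earlier results of these data known, so the counts are a description.

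OAS2, which activates RNase L on double-stranded RNA, had 81, 77 and 51 counts in 786O shControl and 3, 4 and 5 with shBMAL1, and 99, 102 and 73 against 0, 5 and 11 in WT8. MX2, an antiviral GTPase, had 45, 24 and 33 against 15, 0 and 7 counts in 786O and 51, 57 and 58 against 0 in each library in WT8, a fall of at least 19.2-fold against the same floor. IFIT1, which binds foreign RNA caps, went from 12.2, 14.4 and 12.1 to 6.23, 7.34 and 4.74 CPM in 786O and from 36.8, 38.9 and 33.9 to 5.26, 4.14 and 4.90 in WT8. ISG15, a ubiquitin-like modifier, went from 23.9, 24.8 and 22.6 to 13.5, 14.7 and 13.5 CPM in 786O and from 31.5, 30.9 and 30.7 to 13.9, 14.5 and 13.0 in WT8. The ISG15 knockdown libraries of the lines ended at like levels, whereas IFIT1 fell further in WT8.

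IFIT3, a partner of IFIT1, fell from 24.5, 26.3 and 26.4 to 14.5, 13.7 and 12.8 CPM in 786O and from 23.3, 25.4 and 20.9 to 7.31, 7.30 and 6.24 in WT8. IFI44 fell by 0.41 on the log2 scale in 786O and by 3.21 in WT8, with an adjusted p of 9.71e-15 for the difference in edgeR. Of the 14 list genes that were neither shared lower nor LGALS3BP, some differed in direction between the lines. IFI35 was at -0.66 in 786O and 1.01 in WT8, and OAS3 at -0.84 and 0.54. GBP1 was at 0.02 and 0.04.

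**Figure D4:**
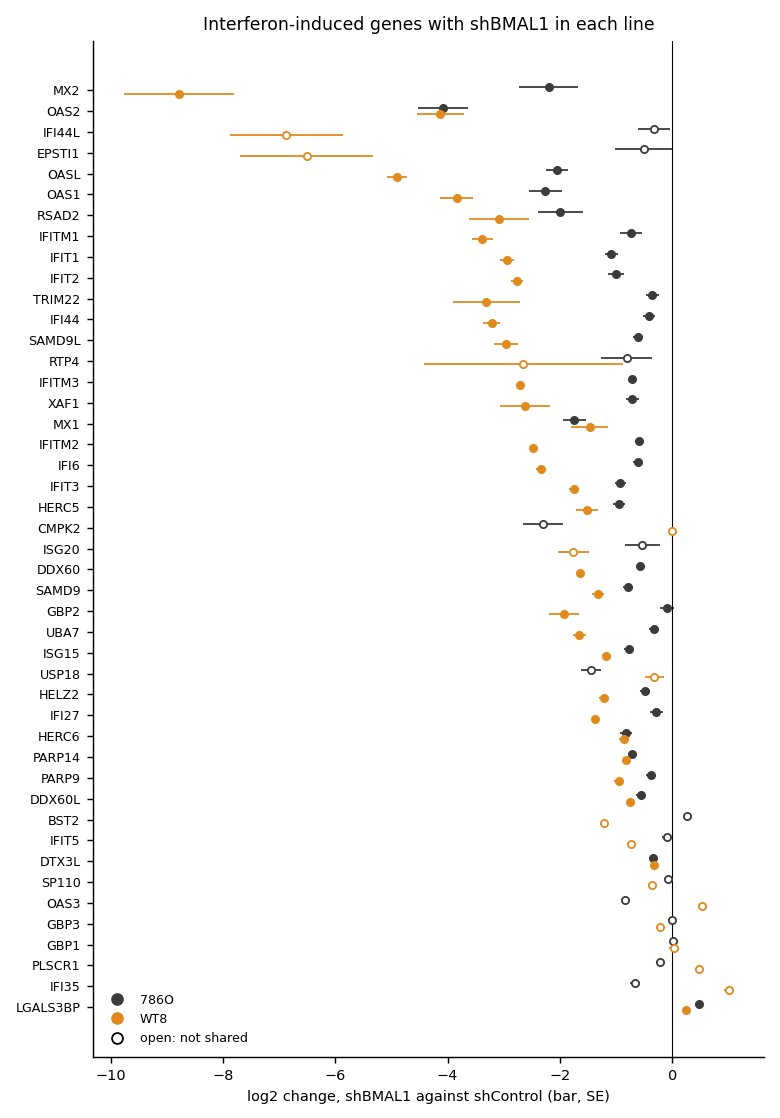
Log2 change with shBMAL1 against shControl for the 45 interferon-induced genes in 786O (dark) and WT8 (orange), ordered by the mean effect, with SE bars and filled points for shared genes. Most filled pairs lie left of 0 with the orange point further left, LGALS3BP lies to the right, the fitted values of genes at 0 counts in a group such as MX2 are not bounds, and CMPK2 has no bar in WT8 because its fitted change there was 0.00.

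Most matched promoters of this list held the letters of an interferon-stimulated response element. Promoter sequences of RefSeq on GRCh38.p14, from 250 bases before to 50 after the start of a gene, matched 12901 of the 16838 tested genes. That is 76.6%, under the 80% set for a comparison over all genes, so such a comparison is void and the shares below are only descriptions of the matched promoters. The motif searched was GAAA, any 2 bases, then GAAA. Looked for on both strands at the start site listed first, it was in 2.91% of all matched promoters, in 26 of the 36 matched interferon-list promoters (72.2%), in 15 of 22 among the shared lower ones (68.2%) and in 11 of 14 among the others (78.6%). Its share was thus no higher among the shared lower genes than among the rest of the list. Stretches before the start site are shown for 4 shared lower genes whose values are given in full, on the strand of the gene, with each match of the motif that lies in the stretch in capitals, in whichever orientation it occurs and joined where matches overlap.
IFIT1, chr10:89392480-89392569, plus strand: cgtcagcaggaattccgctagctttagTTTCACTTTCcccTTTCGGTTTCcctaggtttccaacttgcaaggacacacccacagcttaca
IFIT3, chr10:89327835-89327924, plus strand: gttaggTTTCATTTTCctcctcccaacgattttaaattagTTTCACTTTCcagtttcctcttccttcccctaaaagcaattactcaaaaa
ISG15, chr1:1013350-1013439, plus strand: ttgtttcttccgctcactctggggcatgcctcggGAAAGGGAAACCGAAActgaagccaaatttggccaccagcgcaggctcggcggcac
IFIH1, chr2:162318685-162318745, minus strand: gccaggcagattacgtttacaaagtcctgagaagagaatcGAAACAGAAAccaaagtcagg

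The sensors and factors above these genes moved in part. Of 24 tested RNA sensors, IRFs and STATs, 9 were shared and lower (37.5%, against 13.0% of all tested genes) and 0 shared and higher. Among them were the RNA receptors TLR3, IFIH1, DHX58 and DDX58, the DNA-sensing adaptor TMEM173, and IRF5, IRF9 and STAT2. TLR3 went from 9.22, 9.04 and 9.07 to 2.90, 2.68 and 2.70 CPM in 786O, but in WT8 it had only 6 to 16 counts in control and 1 to 4 with shBMAL1. IFIH1, which detects long double-stranded RNA and whose promoter is printed above, went from 18.7, 18.8 and 19.8 to 9.22, 8.92 and 10.7 CPM and from 10.7, 10.4 and 9.60 to 2.76, 3.05 and 3.08. The interferon receptor genes IFNAR1 and IFNAR2 were not shared (0.04 and 0.05 in 786O, 0.37 and 0.45 in WT8), nor was IRF7 (-0.11 and -0.10).

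Antigen presentation and NF-kB genes had like counts. Of 20 genes of MHC class I presentation, 9 were shared and lower (45.0%, against 13.0% of all tested genes) and 0 higher. HLA-F, a non-classical class I gene, went from 14.1, 13.8 and 13.5 to 7.21, 8.43 and 7.56 CPM in 786O and from 14.4, 10.2 and 10.4 to 4.15, 3.98 and 3.77 in WT8. HLA-F overlaps an antisense transcript and shares near-identical sequence with other class I genes, as does HLA-B (log2 -0.49 and -1.34). TAP1, which pumps peptides into the ER, fell by 0.68 and 0.85 and the immunoproteasome subunit gene PSMB8 by 0.52 and 0.45, without a detectable difference between the lines for PSMB8 (0.07, 95% interval -0.10 to 0.23).

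Among 20 NF-kB subunits and feedback genes, 9 were shared and lower (45.0%, against 13.0% of all tested genes) and TRAF2 was shared and higher. NFKB2, the p100 precursor, fell by 0.54 and 0.55, TNFAIP2 by 0.70 and 0.68, and BIRC3, an inhibitor of apoptosis, by 0.70 and 0.55. TNFAIP3, which encodes the A20 deubiquitinase, fell by 0.56 and 1.26. TNFAIP2 levels were 237, 246 and 233 CPM in 786O shControl and 138, 151 and 151 with shBMAL1, so this is a change in an abundant transcript with tight replicates.

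Of 26 chemokine and cytokine genes tested, 5 were shared and lower, LTB, TNF, IL18, TNFSF10 and CCL5, and 0 were shared and higher. The lower share of 19.2% is near the 13.0% of all tested genes. TNF fell by 0.96 and 1.27. TNFSF10, the death ligand TRAIL, went from 507, 500 and 505 to 353, 345 and 336 CPM in 786O and from 16.7, 17.8 and 17 to 1.65, 1.66 and 2.09 in WT8, so its control level differed between the lines far more than its direction. CCL5, a T cell chemoattractant, had 70, 82 and 51 counts against 15, 17 and 7 in 786O and 291, 243 and 221 against 0, 0 and 3 in WT8. Complement and acute phase genes had 6 of 18 shared and lower (33.3%) and CD59, a complement inhibitor, shared and higher. The list median was 0.27 in 786O and -1.89 in WT8, so the fall was not list-wide in 786O. C3, the central component, fell by 0.69 in 786O and 3.70 in WT8, C1S by 1.37 and 2.19, and SAA1 by 0.99 and 1.72. SAA2 is nearly identical to SAA1 and was at -1.03 and -1.69.

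HIF target genes were examined because the study placed BMAL1 beside ARNT as a partner of HIF2α. Of 33 tested, 13 were shared and lower (39.4%, against 13.0% of all tested genes) and 2, HK2 and P4HA2, shared and higher. In the lines 13 had opposite signs. How often signs were opposite over all tested genes was not computed, for this list or those below. The median mean effect was -0.44, with -0.03 in 786O and -0.81 in WT8. No HIF subunit or partner gene was shared among the 5 tested: EPAS1, which encodes HIF2α, was at -0.08 in 786O and -1.51 in WT8, HIF1A at 0.43 and -1.09, and ARNT at -0.47 and -0.11. This depended on the scaling, since with upper-quartile factors 1 gene of this list was shared and lower.

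ENO2, neuronal enolase, had the largest smaller change of the HIF list. It went from 95.1, 104 and 98.9 to 33, 32.1 and 33.4 CPM in 786O and from 41.0, 43.7 and 43.2 to 12.8, 14.7 and 13.2 in WT8. The lines started from different levels and fell by the same factor, 3.02-fold and 3.14-fold, with a difference of -0.06 (95% interval -0.23 to 0.11). ENO2 overlaps LRRC23 on the same strand. DDIT4, an inhibitor of mTORC1, fell by 0.71 and 1.34. CCND1, cyclin D1, fell by 0.45 and 1.67 and NDRG1 by 0.32 and 2.64.

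PLIN2, which coats lipid droplets, went from 199, 195 and 202 to 139, 132 and 136 CPM in 786O and from 307, 303 and 298 to 71.8, 76.1 and 72.5 in WT8. The difference between the lines was -1.49 (SE 0.06, adjusted p 2.11e-21 in edgeR). It is shown because its promoter holds the E-box CACGTG, which also contains the hypoxia element core, in capitals on the strand of the gene.
PLIN2, chr9:19127516-19127601, minus strand: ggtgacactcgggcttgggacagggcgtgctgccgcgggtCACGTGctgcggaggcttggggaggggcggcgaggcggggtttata
CACGTG was in 9.76% of all matched promoters, in 9.42% of those of shared lower genes and in 12% of those of shared higher genes. The core ACGTG or GCGTG was in 60.9%, 58.8% and 66.8%. Of the 18 clock genes, 5 had CACGTG in this window, PER1, TEF, CIART, BHLHE40 and BHLHE41, none of which was shared. PER2, CRY1, CRY2, NR1D1 and NR1D2 had no CACGTG in the window at their first listed start, which says nothing of E-boxes elsewhere.

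Among lipid, amino acid and ER genes the shared members were nearly all on the lower side, but in most of these lists they were a minority of the genes tested. Of 18 genes of fatty acid synthesis and lipid droplets, 8 were shared and lower (44.4%, against 13.0% of all tested genes) and 0 higher. Among them were PLIN2, DGAT2, which makes triglycerides (-0.51 and -1.20), ACLY, which makes cytosolic acetyl-CoA (-0.46 and -0.53), and CPT1A, which imports fatty acids into mitochondria (-0.42 and -1.94). Cholesterol synthesis had 2 of 24 shared and lower (8.33%), and 19 of its genes had opposite signs in the lines. Of 21 genes that ATF4 activates under amino acid stress, 11 were shared and lower (52.4%), and ATF3 was shared and higher (0.65 and 0.81).

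SLC7A5 and SLC3A2, the chains of the LAT1 amino acid transporter, were both shared and lower. SLC3A2 went from 538, 519 and 500 to 268, 267 and 271 CPM in 786O and from 554, 537 and 558 to 297, 277 and 280 in WT8, a log2 change of -0.95 (SE 0.04) in each line. SLC7A5 fell by 1.06 and 0.90, a small but called difference of 0.16 (adjusted p 0.0223 in edgeR). DDIT3, the factor CHOP, fell by 0.68 and 0.74, and TRIB3, a pseudokinase, by 0.66 and 1.40. Among 20 ER chaperones and genes of the unfolded protein response 8 were shared and lower and 0 higher, but apart from HYOU1 their changes were small: HSPA5, the chaperone BiP, fell by 0.29 and 0.41, PDIA4 by 0.37 and 0.35, and the sensor gene ATF6 by 0.36 and 0.64. The lysosome and autophagy list had 9 of 25 shared and lower, with NPC1 at -0.62 and -0.82 and ATP6V0D1 at -0.65 and -0.89, and the factor MITF shared and higher (0.77 and 0.62).

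**Figure D5:**
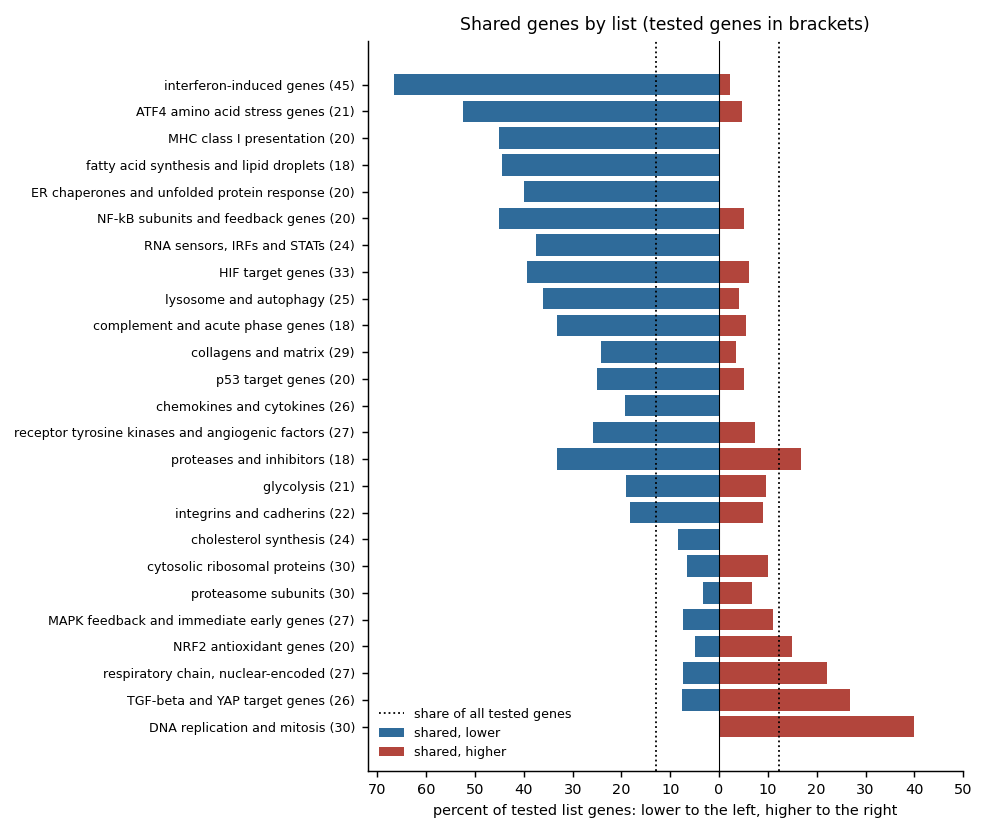
Percent of the tested genes of each list that were shared and lower (blue, to the left) or shared and higher (red, to the right), for the 25 lists of at least 15 tested genes other than cell type markers, with dotted lines at 13.0% and 12.2%, the shares among all tested genes. Interferon-induced genes reach 66.7% on the lower side and DNA replication and mitosis 40% on the higher side, and ribosomal, proteasome and cholesterol genes lie below both lines.

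DNA replication and mitosis genes formed the largest group on the higher side. All 30 were called higher in the mean effect, but only 12 were shared, and 15 had opposite signs in the lines. The median was -0.01 in 786O and 2.33 in WT8. MCM7, a subunit of the replicative helicase, went from 678, 672 and 680 to 856, 829 and 820 CPM in 786O and from 94.4, 98.5 and 96.0 to 524, 477 and 450 in WT8. GINS2, of the same helicase, rose by 0.50 in 786O and 3.78 in WT8, GINS1 by 0.33 and 2.90, and CDK1, the mitotic kinase, by 0.42 and 2.44. The differences between the lines were 2.02 to 3.28 on the log2 scale for these 4 genes, so the shared part of the rise was its smaller part.

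TGF-beta and YAP target genes had 7 of 26 shared and higher (26.9%, against 12.2% of all tested genes) and 2 lower. ID3, an inhibitor of helix-loop-helix factors, rose by 0.74 and 1.05, INHBA, an activin subunit, by 0.61 and 0.66, F3, tissue factor, by 0.78 and 0.61, and the kinase gene LATS2 by 0.31 and 0.85. SPRY2, a feedback inhibitor of receptor tyrosine kinase signalling, rose by 1.02 and 1.00, with a difference of -0.02 (95% interval -0.28 to 0.24). It belonged to a list of 27 MAPK feedback and immediate early genes of which 3 were shared and higher (11.1%) and 2, CCND1 and KLF4, lower (7.41%). Among all tested genes these shares were 12.2% and 13.0%. Receptor tyrosine kinases and angiogenic factors had 7 of 27 shared and lower (25.9%, against 13.0% of all tested genes), TIE1 among them. CCM2L, an endothelial adaptor, was at -3.28 and -1.58 and ERBB2 at -0.64 and -0.50. ERBB3 had 3 to 12 counts against 0 to 2 in 786O and 11 to 27 against 2 to 5 in WT8, too few to give a fold.

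Matrix and adhesion genes were mixed. Proteases and their inhibitors had 6 of 18 shared and lower (33.3%) and 3 higher (16.7%), against 13.0% and 12.2% of all tested genes. MMP9, a gelatinase, fell by 1.49 and 3.02 while MMP2, the other gelatinase, rose by 0.56 and 1.08, and ADAMTS1 rose by 1.05 and 0.82. Collagens and matrix genes had 7 of 29 shared and lower (24.1%), with COL18A1 at -0.34 and -2.33, COL16A1 at -1.45 and -0.34 and VCAN at -0.48 and -0.72. Among 22 integrins and cadherins 4 were shared and lower (18.2%) and 2 higher (9.09%), near the shares of all tested genes, with ITGB4 at -1.60 and -1.68, ITGB5 at -0.60 and -0.55 and ITGB8 at 1.07 and 0.28.

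The remaining lists lay on either side of the 12.2% higher and 13.0% lower among all tested genes. Glycolysis had 4 of 21 shared and lower and 2 higher, with HK2, a hexokinase, at 0.36 and 0.32 and its relative HK1 at -0.30 and -0.56. The p53 list had 5 of 20 lower (25.0%) and 1 higher: GDF15, a stress cytokine, fell by 1.09 and 3.36 while MDM2, the p53 ligase, rose by 0.41 and 0.97. NRF2 genes had 3 of 20 higher and 1 lower, with OSGIN1 at 0.55 and 1.66. Nuclear-encoded respiratory chain genes had 6 of 27 higher (22.2%) and 2 lower, the latter NDUFV1 (-0.34 and -0.70) and ATP5B. Cytosolic ribosomal proteins had 3 of 30 higher and 2 lower, and RPL15 stood out at 0.63 and 0.60. Proteasome subunits had 2 of 30 higher (6.67%) and 1 lower (3.33%).

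Some shared genes differed in size between the lines by far more than the rest. Among those with a mean of at least 50 counts, the largest called differences were in CCL5, LIPG, RARRES3, MIR100HG and TIE1. RARRES3, a retinoid-responsive phospholipase, went from 186, 222 and 156 to 69, 92 and 105 counts in 786O and from 123, 104 and 136 to 0, 1 and 5 in WT8. LIPG, endothelial lipase, was at 43.7, 39.9 and 40.8 against 32.2, 28.7 and 31.5 CPM in 786O but at under 0.3 CPM in each WT8 library, and the host transcript MIR100HG was at 7.07 ± 1.04 against 18.5 ± 0.41 CPM in 786O and at 0 counts in the WT8 controls. For LIPG and MIR100HG the WT8 side of the rule thus rests on very few counts. In all, 84 shared genes had at least 1 group at or below the floor of 3 counts per library.

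Markers of other cell types were at low levels and moved with the groups. The summed CPM of 12 endothelial markers was 28.4 to 33.9 in 786O shControl and 17.8 to 19.2 with shBMAL1, and 63.6 to 70.5 against 15.2 to 17 in WT8. These sums were mostly TIE1 and EGFL7, the 2 that were shared and lower, while CDH5, CLDN5, KDR, ERG and EMCN had too few counts to be tested. The 13 leukocyte markers summed to 45.8 to 48.6 against 38.3 to 43.4 CPM in 786O and to 36.5 to 41.8 against 19.3 to 23.4 in WT8, nearly all of it CD68, with PTPRC, CD3D and CD3E too low to test. The 10 fibroblast markers summed to 22.5 to 23.6 against 23.9 to 25.6 CPM and to 11.6 to 12.7 against 13.4 to 14.3. LUM was the only shared one of the 6 tested. In the mean effect 1 of the 6 was called higher and 4 lower, against 32.6% and 32.9% of all tested genes. COL1A2, PDGFRA and DCN were too low to test. The 17 renal markers, with PAX2 among the shared lower genes, summed to 5950 to 6360 against 6260 to 6380 CPM in 786O and to 4590 to 4600 against 3540 to 3680 in WT8. Their part in the results above was not tested.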

How the data were processed

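RNA of 12 cultures was sequenced by BGI from stranded mRNA libraries as read pairs. According to the study's methods, the authors used SeqMan NGen for alignment to GRCh37 and ArrayStar for export, while the submitters' processing notes name STAR, DESeq2 and hg38. Which applies to the table, the annotation, the use of strand and the treatment of reads with several alignments are not given in the sources used here. The table holds estimated counts, as deposited by the authors, unscaled between libraries, in 3 columns for each of 4 groups. A value of 0.028 (47.0% of values) stood in for 0 and was set to 0, 98 lines sharing 45 names were summed by name, which left 38021 names, and values were rounded, since 5.67% of the others were not whole. The design had assumed plain counts.

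Genes were kept by filterByExpr, scaled by TMM (factors 0.948 to 1.04) and fitted with a mean per group over the 12 libraries by the robust quasi-likelihood F test of edgeR 4.0.16 in R 4.3.3. The contrasts were the change with shBMAL1 in each line, their average and their difference, adjusted by Benjamini-Hochberg over 16838 genes and called at an adjusted p under 0.1, the false discovery rate of the study. The standard error (SE) is the log2 change over the square root of F. The common biological coefficient of variation was 5.70%. P-values measure the spread between these replicates. The floor of 3 counts covers counting error alone, as PCR copies of a molecule are not independent.

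The members, the 33 lists, drawn up from general knowledge, and the rule for naming genes were chosen with earlier results of these data known. Named were the target, the 12 higher and 12 lower shared genes with the largest smaller change over the lines (mean of at least 50 counts), the clock lists, up to 4 genes from each list with at least 3 shared genes, and the 5 largest differences between the lines. Other list members are named as examples, and genes picked after their values were seen are marked. Gene positions are from GENCODE lifted to GRCh37. Alternatives were other scaling factors, DESeq2, limma-voom, other filters and thresholds, halved counts, a replicate block and leaving out each library. Results of a few listed genes are not reported here.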

Additional observations from a re-analysis of the deposited data

Results flagged for a closer look

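For 96 of the genes named above the change with shBMAL1 differed between the lines at an adjusted p under 0.1 in edgeR. The values here are the log2 change in WT8 minus that in 786O, so a negative value means a lower result of shBMAL1 in WT8. The common case among shared lower genes was a larger fall in WT8. It was found for ARNTL (-0.86) and the clock gene NR1D1 (-0.53), and for the leading lower genes TIE1 (-3.91), PADI3 (-1.76), OAS1 (-1.59), SLCO2B1 (-1.50), OASL (-2.85), DENND2A (-2.41) and SULT1A1 (-0.54).

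The same held for interferon, antigen and cytokine genes, with MX2 at -6.59, IFIT1 at -1.86, IFIT3 at -0.82, ISG15 at -0.39, IFI44 at -2.80, IFIH1 at -0.79, HLA-F at -0.72, HLA-B at -0.85, TAP1 at -0.18, CCL5 at -5.49, TNFSF10 at -2.70, TNFAIP3 at -0.70, C3 at -3.01, C1S at -0.82, SAA1 at -0.73 and SAA2 at -0.66. Among HIF target and lipid genes it held for PLIN2 (-1.49), NDRG1 (-2.32), CCND1 (-1.23), DDIT4 (-0.63), DGAT2 (-0.68) and CPT1A (-1.52). Metabolic, stress and lysosomal genes with it were OGDH (-0.62), HK1 (-0.26), NDUFV1 (-0.37), TRIB3 (-0.74), GDF15 (-2.27), HYOU1 (-0.34), ATF6 (-0.28), HSPA5 (-0.12), ATP6V0D1 (-0.24) and NPC1 (-0.20). Matrix and other genes with it were VCAN (-0.24), COL18A1 (-1.99), MMP9 (-1.53), KLF4 (-0.58), LIPG (-4.92) and RARRES3 (-4.80).

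A larger fall in 786O was found for 7 shared lower genes, NR1D2 (1.15), COL16A1 (1.11), TIMP2 (0.59), CCM2L (1.70), OSTM1 (0.39), SLC7A5 (0.16) and BIRC3 (0.16). A larger rise in WT8 was found for the clock repressors PER2 (1.12), CRY1 (0.41) and CRY2 (0.76), the leading higher genes CPA4 (1.04), PXDNL (1.13), LUM (2.35), SYNE1 (0.68), DYNLRB1 (0.89) and HSD17B10 (0.53), the replication genes GINS2 (3.28), GINS1 (2.57), CDK1 (2.03) and MCM7 (2.02), and for MDM2 (0.57), OSGIN1 (1.11), ID3 (0.32), LATS2 (0.54), MMP2 (0.52), SERPINB2 (4.07) and MIR100HG (4.16). A larger rise in 786O was found for SCG5 (-0.43), CRYAB (-0.54), ADAMTS1 (-0.23), ITGB8 (-0.79) and LGALS3BP (-0.23). The fitted values of MX2, CCL5, SERPINB2, LIPG, MIR100HG, RARRES3, TIE1 and PADI3 rest on a group averaging at most 3 counts per library, depend on the prior count and are no bounds.

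Among genes that were not shared, the difference was called for ARNTL2 (0.63), CLOCK (0.45), NPAS2 (-1.12), PER1 (1.09), PER3 (1.38), DBP (-1.88), TEF (1.04), NFIL3 (-1.03), BHLHE40 (-1.05) and CIART (0.83) of the clock, for EPAS1 (-1.44), HIF1A (-1.52) and ARNT (0.36), and for IFI35 (1.67), OAS3 (1.38), IFNAR1 (0.33) and IFNAR2 (0.40).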

How the results depend on the processing

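Among the 155 named genes examined, no direction that was called turned under any alternative run for them. The other genes were not examined for this. The mean effect called 11018 genes and the rule gave 4239 shared genes, and a demand for a change over 1.5-fold lowered these counts the most. It left 3656 genes called in the mean effect (1433 higher and 2223 lower) and 932 shared genes (264 higher and 668 lower), of which 250 had a called difference between the lines. It moved 37 of the 58 list counts by over 1.5 times. Of the 155 named genes examined, it ended the mean-effect call of 42 and the called difference between the lines of 41. Under every other setting run (2 other scaling factors, DESeq2, limma-voom, 2 other filters, halved counts, an adjusted p under 0.05 and the replicate block) these totals stayed within 1.5 times, for example at 10941 genes called by DESeq2. The near-even split depended on the scaling: upper-quartile factors gave 1756 higher and 2482 lower shared genes, and 4799 higher and 6209 lower in the mean effect. Of the 58 list counts, 5 moved by over 1.5 times under upper-quartile factors, 5 under the filter at a mean of 50 counts, and 2 each under DESeq2, DESeq2-type size factors and halved counts. Over all fits that left out 1 library, 18 list counts moved by over 1.5 times and 678 did not. The mean-effect call of BHLHE41 was lost under upper-quartile factors and that filter, and that of PER1 with no filter. Without 1 library at a time the mean effect called 10739 to 10965 genes (5310 to 5427 higher and 5404 to 5538 lower), the rule gave 4416 to 4775 shared genes (2115 to 2322 and 2293 to 2513), since 2 libraries overlap less easily than 3, and 2209 to 2416 of them had a called difference. The replicate numbers did not pair the samples: over the 18 pairs of same-numbered libraries of different groups, deviations from the group means correlated at -0.057 to 0.068. With the replicate block 10904 genes were called (5433 higher and 5471 lower), and it changed no call of a named gene. The mean effects of PER1 (-0.15 to -0.10) and BHLHE41 (0.08 to 0.12) lost their call without any of 6 libraries, and that of HLF (0.49 to 0.53) without 786O shBMAL1 replicate 1 or 3 or 786O shControl replicate 2. TEF gained one without 786O shBMAL1 replicate 1 (0.22), NPAS2 without WT8 shBMAL1 replicate 3 (0.16) and CIART without WT8 shBMAL1 replicate 1 or WT8 shControl replicate 1 (0.44 and 0.55). The called difference between the lines was lost for SULT1A1 without 786O shBMAL1 replicate 1 (-0.40) and for TAP1 without WT8 shBMAL1 replicate 2 (-0.13). It was lost without any of 3 to 9 libraries for CPA4 (0.53 to 0.94), SCG5 (-0.42 to -0.28), PADI3 (-1.63 to -1.19), CIART (0.54 to 0.85), BIRC3 (0.12 to 0.16), C1S (-0.71 to -0.45), SAA2 (-0.66 to -0.37), HSPA5 (-0.12 to -0.09) and SERPINB2 (1.38 to 4.08). With all libraries, an adjusted p under 0.05 ended it for 12 of the 155 named genes. DESeq2-type size factors ended it for 3, BIRC3 among them (0.14). A difference between the lines was gained without at least 1 library for GPSM3 (-1.13 to -1.03), ERBB2 (0.19 to 0.20), HLF (1.22 to 1.24), PCDH7 (-0.89 to -0.71), SIGLEC15 (-0.50 to -0.49), LTB (1.52), LINC00460 (0.46), ZFPM2 (0.78), ATF3 (0.27) and ATP5B (-0.13). Depth limits the genes with a group near or under 3 counts per library, whose fitted log2 changes are imprecise.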
